A study of Gossypium barbadense with 4 samples.

Results

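Anthers of the semigametic cotton line 57-4 were set against anthers of Pima S-1, an obsolete Gossypium barbadense cultivar with normal fertilization, through 1439 probe sets that the study named as differing between these lines. The members are the 284 probe sets of the study's anther list and a further 1155 probe sets, out of 24029 on the Affymetrix cotton array, that were tied by GenBank accession to its ovule list only. 57-4 is a doubled haploid recovered from Pima S-1 that carries the semigamy mutation and is treated as its natural isoline, so the mutation is represented here by 1 line. Flowers of field plants were taken at 0 days post-anthesis (DPA). Equal amounts of RNA from 3 biological replicates of 10 flowers each were pooled before hybridization, which left 1 array of 57-4 anthers and 1 array of Pima S-1 anthers. The 2 arrays of ovules from the same lines are used only for values set beside those of anthers. With 1 array per line there is no replicate error, no test was possible, and each difference below describes these 2 hybridizations.

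In semigamy the sperm enters the egg but the nuclei of the gametes do not fuse, and each can go on to divide on its own, which yields haploid and chimeric seedlings. Anthers at flower opening hold mature pollen within a wall whose nutritive inner layer, the tapetum, has largely broken down. Some of the listed products are regulators that plants switch on soon after cold, drought or wounding, among them AP2/ERF transcription factors, which bind GCC-box or dehydration-responsive (DRE) promoter elements, WRKY factors, calmodulins and CCR4-associated deadenylases, which shorten the poly(A) tails of mRNAs.

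Signals are MAS5 intensities on a linear scale, which the authors had scaled to a common trimmed mean on each array. Signals under 50 were set to 50 before log2(57-4/Pima S-1) was taken, so that a fold with a dimmer signal under 50 is a lower bound and no fold is given where both signals were under 50. A difference was counted at a log2 ratio of at least 1 or at most -1. A signal of at least 50 was found on 61.1% of probe sets in 57-4 anthers and on 58.2% in Pima S-1 anthers. The hybridization controls, bacterial and phage RNAs added to each sample, were brighter on the 57-4 array for 9 of 9 probe sets, by log2 ratios of 0.31 to 0.64. The ratio of 3' to 5' signal for the cotton actin, ss1 and ubq11 transcripts ran between 11.7 and 17.4 in 57-4 anthers and between 5.64 and 9.20 in Pima S-1 anthers. On the ovule arrays it ran between 14.5 and 21.05 in 57-4 and between 4.18 and 11.8 in Pima S-1. These values move with the line, and their part in the results below was not tested. The study chose its anther list on these same samples, so the directions of those 284 probe sets are a description and not independent evidence. The words fixed for pollen matched only 3 pectinesterases, with summed signals of 1391 in 57-4 anthers against 1638 in those of Pima S-1, and the words for tapetum and anther wall matched 4 probe sets of lipid transfer proteins and chalcone synthase, with 4370.1 in 57-4 and 5292 in Pima S-1. These are made in other tissues too, so the tissue could not be checked through defining markers.

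Of the 284 anther-listed probe sets, 277 had a signal of at least 50 on an anther array, and 39 of these were at least 2-fold higher and 143 at least 2-fold lower in 57-4. Over all 24029 probe sets the share was 1.05% higher, 1.79% lower and 2.85% in either direction, and over the 15900 with a measured signal it was 1.59%, 2.71% and 4.3%. A further 95 listed probe sets lay within 2-fold of equality and 7 were under 50 on both arrays. The median log2 ratio of the 277 was -1.01, against 0.002 for all measured probe sets. The fold was a bound for 9 of the 39 higher and 26 of the 143 lower probe sets. Nearest to the threshold, GATA transcription factor 26 (CO088287) lay just inside, with signals of 57.7 in 57-4 and 115.6 in Pima S-1, and a hypothetical protein (AW187517) just outside, with 78.2 in 57-4 and 155.5 in Pima S-1. Dividing the 57-4 signals by the median ratio of the hybridization controls lowered the median of all measured probe sets by 0.45 on the log2 scale. With that scaling the split of the anther-listed probe sets was 24 higher, all of them among the 39, and 193 lower, which held all 143. Since the scaling can only lower a ratio or leave it, this nesting was certain beforehand.

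**Figure D1:**
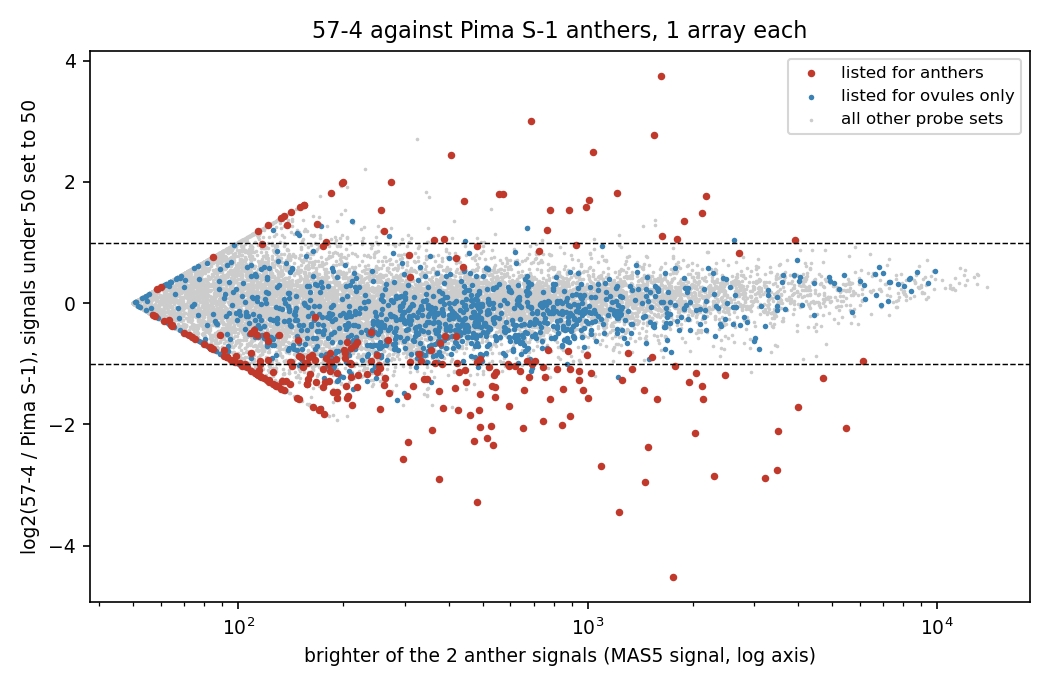
Log2 ratio of 57-4 to Pima S-1 anthers (vertical axis, signals under 50 set to 50) against the brighter of the 2 anther signals (log axis) for every probe set with a signal of at least 50. Red points are listed for anthers, blue points for ovules only and grey points on neither list, and the dashed lines mark a log2 ratio of 1 and -1. Of the anther-listed points 225 of 277 lie below 0, while the blue points centre on a median of -0.21.

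The AP2/ERF and DRE-binding factors were the class with the lowest median, -1.51, and the class held 16 measured probe sets, of which 15 were at least 2-fold lower in 57-4 and 0 higher. A dehydration responsive element binding protein (DT462887), of the family that switches on drought genes, measured 76.6 in 57-4 anthers against 1759 in those of Pima S-1, a 22.96-fold lower signal. Ethylene-responsive transcription factor 5 (DT047349) had 113 in 57-4 and 1233 in Pima S-1 and was 10.9-fold lower. Both probe sets of ERF017, a further member of the family, were lower, with 9.5 in 57-4 against 482.5 in Pima S-1 on DT049130 and 289 in 57-4 against 1489.7 in Pima S-1 on DN758194. The signal of AP2/EREBP factor ERF-2 (DN758410) was 4.0 in 57-4 and 374.5 in Pima S-1, at least 7.49-fold lower. The Pima S-1 signals of these 5 probe sets lay between 374.5 and 1759, and in 57-4 those of ERF017 on DT049130 and of ERF-2 were under the floor. An ovule-listed probe set of the name ERF-2, CO085293, was brighter and near equality in anthers, with 2260 in 57-4 and 2324 in Pima S-1.

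AP2/EREBP factor ERF-1 (AY779339) had 1990.6 in 57-4 and 4699 in Pima S-1, 2.36-fold lower, although in ovules its signal was 3144 in 57-4 and 1509 in Pima S-1. The 3 probe sets of ethylene response factor 1, DN826409, DN759712 and CO127064, had signals of 795, 1093 and 914 in 57-4 and 1946, 2472 and 2038 in Pima S-1, with log2 ratios between -1.29 and -1.16. All 3 are of kinds that can hybridize to several related transcripts, so they may share a source. EREBP C4 (DR462212), an ethylene responsive element binder, stood lower, at 458 in 57-4 and 2023 in Pima S-1, and ERF4 (AY781120), which belongs to a repressor branch of the family in Arabidopsis, had 867 in 57-4 and 1776 in Pima S-1. On the ovule-listed probe set named EREBP C4, DW491719, the anther signals were closer, at 736.5 in 57-4 and 809 in Pima S-1.

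DRE-binding factor 2 was described on 5 anther-listed probe sets, written with a capital letter on 4 of them, and on 1 ovule-listed probe set. The brightest, DT455621, had 169 in 57-4 and 1089 in Pima S-1, 6.46-fold lower. DV848960 had 69.2 in 57-4 against 204 in Pima S-1, and DT461163 had 67.7 in 57-4 and 186 in Pima S-1. On DT464033 the signal was 4.2 in 57-4 and 73.7 in Pima S-1, at least 1.47-fold lower, and CO110203 was under 50 in both lines. The ovule-listed probe set of that description, DT463424, had 93.9 in 57-4 anthers against 284 in those of Pima S-1. Its log2 ratio of -1.60 was the lowest of any ovule-listed probe set whose brighter signal reached 200. The probe sets measured under this name thus had 57-4 below Pima S-1 each time, over log2 ratios of -2.69 to -0.56.

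**Figure D2:**
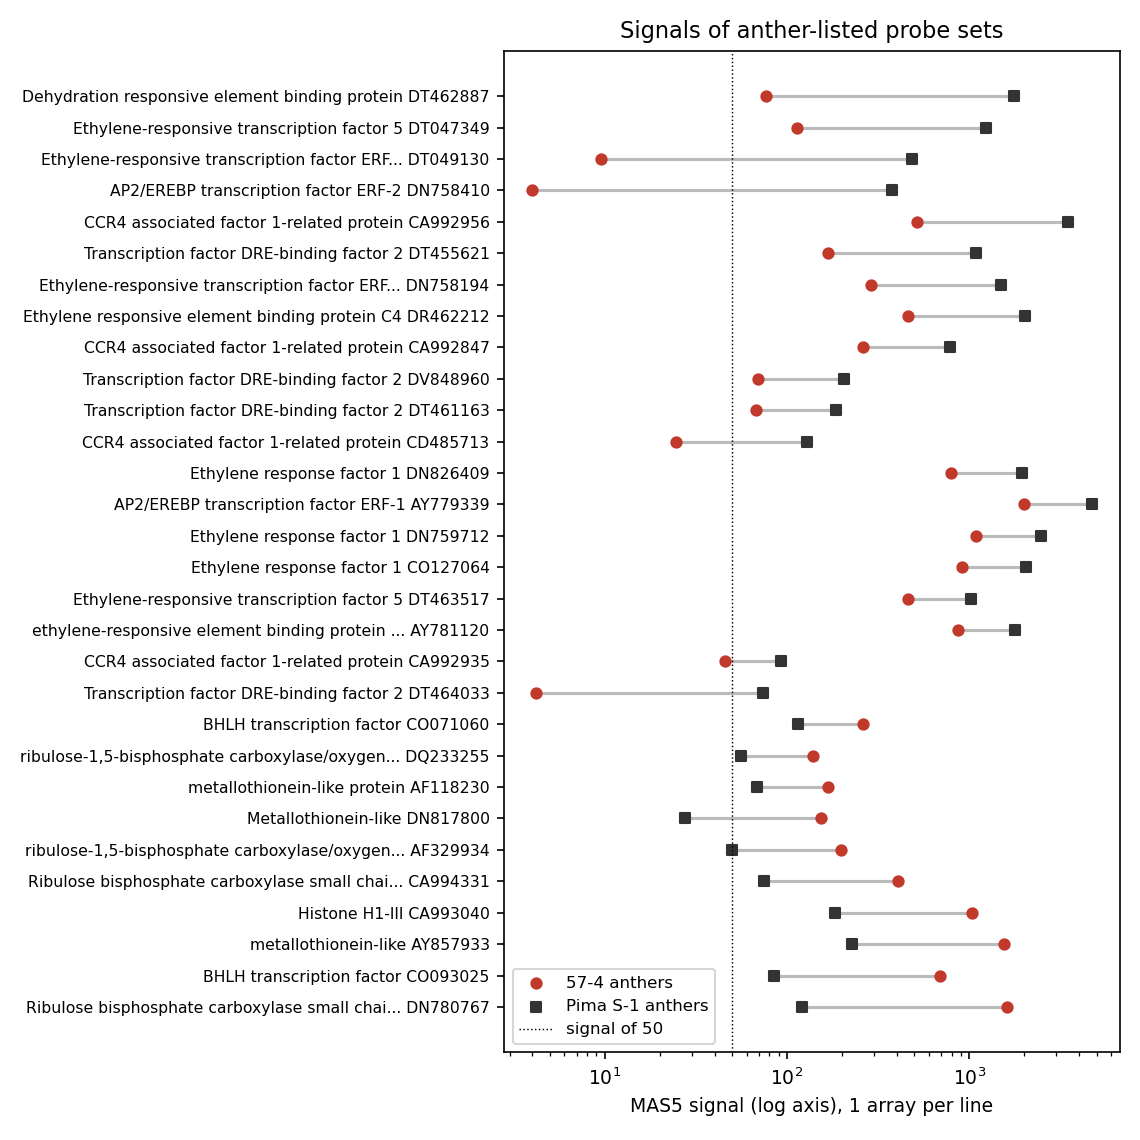
MAS5 signal (log axis) of anther-listed AP2/ERF, DRE-binding and CCR4-associated factors and of the higher carbon fixation, metallothionein, bHLH and histone probe sets, with 57-4 anthers as red circles and Pima S-1 anthers as black squares, joined by a line for each probe set and ordered by log2 ratio. The dotted line marks a signal of 50, and each point is 1 array. The red circles lie left of the squares in the upper 20 rows and right of them in the lower 10.

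RNA decay and RNA binding was the class with the next lowest median, -1.37 over 9 measured probe sets, with 6 at least 2-fold lower and 1 higher. All 4 probe sets of the CCR4 associated factor 1-related protein had 57-4 below Pima S-1. Their signals in 57-4 anthers were 518.5 on CA992956, 259.9 on CA992847, 24.6 on CD485713 and 45.9 on CA992935, and in Pima S-1 anthers they were 3481, 781, 128 and 92.6 in that order. In ovules 3 of these 4 had the opposite sign, from 0.11 to 0.94 on the log2 scale, and CA992956 had -0.42. The ovule signals of CD485713, 96.0 in 57-4 and 30.2 in Pima S-1, and of CA992935, 90.7 and 22.5, were near the floor. A poly(A)-binding protein (CO089484), which coats the mRNA tail, had 159 in 57-4 and 417 in Pima S-1, and a nuclear-localized RNA binding protein (DN779365) had 206 in 57-4 and 533 in Pima S-1. The member higher in 57-4 was RimM (DN802499), a 16S rRNA processing protein of bacterial and plastid ribosomes, with 444 in 57-4 and 138 in Pima S-1.

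Words fixed for rapid stress-response regulators (ERF, DRE-binding, WRKY, CCR4, calmodulin, Phi-1 and ATL3F) matched 28 anther-listed probe sets, a list set with earlier results of these data known. Of the 27 measured, 24 were at least 2-fold lower and 0 higher in 57-4, with a median log2 ratio of -1.43. Summed over the 28, the anther signal was 10719 in 57-4 and 34742 in Pima S-1. In ovules the same probe sets summed to 18489.7 in 57-4 and 18715.5 in Pima S-1. The 15 ovule-listed probe sets matching these words had in anthers 1 lower and 2 higher, against 2.82% and 0.82% of all measured ovule-listed probe sets. Those 15 had a median of 0.25, and sums of 6840.4 in 57-4 and 6652 in Pima S-1. Among them WRKY8 (DT465694) had 938 in 57-4 anthers against 786 in those of Pima S-1, and an ATL3F probe set (DW498697) had 147 in 57-4 against 66.0 in Pima S-1, while the anther-listed ATL3F, a RING-H2 ubiquitin ligase (CA992783), had 811 in 57-4 and 3511 in Pima S-1. The other higher one was a kinesin-like calmodulin binding protein (DW500209), matched by the word calmodulin. The lower one was DRE-binding factor 2 (DT463424), given above, and 6 of these 15 had a log2 ratio below 0. The 28 were put on the anther list for their anther difference and the 15 were not.

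Calcium and protein phosphorylation formed a class of 14, with 5 at least 2-fold lower, 0 higher and a median of -0.93. Calmodulin (DW509133), the main cytosolic calcium sensor, had 97.9 in 57-4 and 471 in Pima S-1, 4.81-fold lower. Protein phosphatase 2C, a family that holds the negative regulators of abscisic acid signalling, had 62.3 in 57-4 and 306 in Pima S-1 on DT463611, and log2 ratios of -0.89 and -0.86 on DT462567 and CO090074. A FERONIA receptor-like kinase (DR459036), named after the Arabidopsis gene needed for pollen tube reception, had 8.3 in 57-4 and 147 in Pima S-1, at least 2.94-fold lower, and both ovule signals were under 50. Of the 3 listed probe sets with the FERONIA name only 1 was at least 2-fold lower, and the highest log2 ratio was -0.29. PERK1-like kinase (AI729395) had 158 in 57-4 and 310 in Pima S-1. The only member brighter in 57-4 was a copine (DW519559), with 421 in 57-4 and 250 in Pima S-1, within 2-fold.

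Of the 9 measured membrane transport probe sets 5 were at least 2-fold lower and 0 higher, and 3 of the 5 carry calcium. Plasma membrane Ca-ATPase 9 (DT461952) had 128 in 57-4 and 462 in Pima S-1, a pump whose Arabidopsis counterpart works in pollen tubes. The endoplasmic reticulum Ca-ATPase 1 (DT048998) had 186 in 57-4 against 543 in Pima S-1, and the Ca2+/H+ exchanger had 392.1 in 57-4 and 944.5 in Pima S-1 on DW502919, and 93.8 in 57-4 against 184 in Pima S-1 on DT467511, the second pair within 2-fold. The ovule-listed probe set of the same pump, Calcium-transporting ATPase 1, endoplasmic reticulum-type (DW485864), had 362 in 57-4 against 502.5 in Pima S-1, within 2-fold too. The potassium transporter KUP2 (DT048852) ran the other way within 2-fold, at 2710.3 in 57-4 and 1529 in Pima S-1. Calreticulin-1 (AI726703), a calcium-binding chaperone of the endoplasmic reticulum, had 385 in 57-4 and 816 in Pima S-1.

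The other transcription regulators were split, with 12 at least 2-fold lower and 5 higher among 28. A zinc finger protein (DV849718) had 211 in 57-4 and 847 in Pima S-1, and Zinc-finger protein DN758679 had 185 in 57-4 and 596 in Pima S-1. The array's own titles liken both, and one more zinc finger (DT465871, 269 in 57-4 and 391 in Pima S-1), to the Arabidopsis salt tolerance zinc finger STZ. Reduced vernalization response 1, a DNA-binding protein of flowering control in Arabidopsis, had 31.4 in 57-4 and 176 in Pima S-1 on DW490369, and 44.1 in 57-4 against 163.5 in Pima S-1 on DT456170. A MYB factor (CO124179) had 117 in 57-4 against 385 in Pima S-1, and the GAMYB-binding protein (CO122244), named for a partner of the gibberellin-regulated MYB of anthers and seeds, had 96.5 in 57-4 and 270.1 in Pima S-1. WRKY46 (DT052025) had 322 in 57-4 and 753 in Pima S-1.

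Among the 5 higher regulators, a bHLH factor (CO093025) had 687 in 57-4 anthers against 85.3 in those of Pima S-1, an 8.05-fold higher signal, and in ovules it was 130.1 in 57-4 and 34.8 in Pima S-1. A bHLH probe set of another accession (CO071060) had 262 in 57-4 anthers against 114 in those of Pima S-1, and a bHLH listed for ovules had the opposite sign in anthers at a log2 ratio of -0.17. MYB59 (DW497255) had 881.5 in 57-4 and 304 in Pima S-1. The mini zinc finger MIF2 (DR463516), of a family that binds zinc-finger homeodomain proteins in Arabidopsis, had 778 in 57-4 against 267 in Pima S-1. A GRAS domain protein (DW512507) had 178 in 57-4 and 88.3 in Pima S-1. These were dim to mid-range in Pima S-1, between 85.3 and 304.

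Photosynthesis and carbon fixation had a median log2 ratio of 1.30, with 5 of 7 at least 2-fold higher in 57-4 and 0 lower. The small subunit of Rubisco, the CO2-fixing enzyme of the chloroplast, had 1616 in 57-4 and 120.1 in Pima S-1 on DN780767, 13.5-fold higher, and 406 in 57-4 against 74.8 in Pima S-1 on CA994331. Rubisco activase, which clears inhibitors from the enzyme, had 198 in 57-4 and, just at the floor, 50 in Pima S-1 on AF329934, and 138 in 57-4 against 56.2 in Pima S-1 on DQ233255. The study's own quantitative PCR of anthers had the activase of AF329934 higher in 57-4 but that of DQ233255 lower, against the array. For the small subunit of DN780767 the study listed no significant difference in anthers. Its quantitative PCR value there was below that of Pima S-1 in 57-4, against the array. A chlorophyll a/b binding protein (CA993199) had 1796.5 in 57-4 and 865 in Pima S-1. Oxygen-evolving enhancer protein 3 (DT458079), of photosystem II, went the other way, at 2.3 in 57-4 and 91.2 in Pima S-1, at least 1.82-fold lower. Words for green tissue matched 6 anther-listed probe sets, with summed signals of 4157 in 57-4 anthers against 1258 in those of Pima S-1, and their ovule sums were 10461 in 57-4 and 7888 in Pima S-1. The ovule-listed probe set of the small subunit (Ribulose bisphosphate carboxylase small chain, chloroplast precursor, CO496683) was brighter, with 3902 in 57-4 against 2817 in Pima S-1, and differed by 0.47 on the log2 scale. The 11 ovule-listed probe sets with such words summed to 17066 in 57-4 anthers against 14602 in those of Pima S-1, with 1 of the 10 measured at least 2-fold higher and 0 lower. In bulk RNA more cells of a type and more RNA per cell cannot be told apart.

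Metallothioneins, small cysteine-rich proteins that bind copper and zinc, were higher on 3 of 3 probe sets. AY857933 had 1550.4 in 57-4 and 228 in Pima S-1, 6.81-fold higher, AF118230 had 167.5 in 57-4 and 68.0 in Pima S-1, and DN817800 had 154 in 57-4 against 27.6 in Pima S-1, at least 3.08-fold higher. Their ovule signals, 10801 in 57-4 and 9664 in Pima S-1 on AY857933, were several times the anther signals in both lines. In the same class L-ascorbate oxidase (DW520074) had 433 in 57-4 and 942 in Pima S-1, and the iron superoxide dismutase FeSOD (DQ088821) had 24.1 in 57-4 and 79.7 in Pima S-1, at least 1.59-fold lower. A probe set named histone H1-III (CA993040) had 1036 in 57-4 and 183 in Pima S-1. The study's quantitative PCR of anthers under that name was higher in 57-4 too. That name comes from a partial match to an insect protein and the array's title says only transcribed locus, so the product is uncertain. The other 3 members of the chromatin and cell cycle class, among them D6-type cyclin (DW509453) at 91.3 in 57-4 and 131 in Pima S-1, lay below 0 within 2-fold.

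Carbon and energy metabolism was mixed, with 7 lower and 4 higher of 12. Alcohol dehydrogenase A, a fermentation enzyme that is abundant in the pollen of several species, had 106 in 57-4 and 537 in Pima S-1 on CO122895, and 2122 in 57-4 against 758 in Pima S-1 on BE054959. The probe set with the high ovule signal, at 15104 in 57-4 against 14414 in Pima S-1, was the one higher in 57-4 anthers, and CO122895 was under 50 in ovules. Raffinose synthase 3 (DW501210) had 1629.5 in 57-4 and 755 in Pima S-1, and fructose-bisphosphate aldolase (CA993106) had 154 in 57-4 and 30.9 in Pima S-1 on its brighter probe set. Alcohol dehydrogenase class-3 (AI729704), aldehyde dehydrogenase 7A1 (DT456191, 84.2 in 57-4 and 219 in Pima S-1) and transaldolase of the pentose phosphate pathway (CO122289, 207 in 57-4 and 444.5 in Pima S-1) were lower. Transaldolase listed for ovules (DR452595) was lower in anthers too, with 107 in 57-4 and 297 in Pima S-1.

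Translation was split, with 2 lower and 2 higher among 6 measured and a median of -0.91, which was 1.29 over its 3 single-transcript probe sets. Chloroplast 50S ribosomal protein L32 (DT461698) had 145 in 57-4 and 489 in Pima S-1, while its ovule signals, 244 in 57-4 and 71.3 in Pima S-1, had the other order. 40S ribosomal protein S4 (CO490783) had 359.6 in 57-4 and 971 in Pima S-1. The higher ones were dim, with 60S ribosomal protein L10 (DW237407) at 149.8 in 57-4 and 44.2 in Pima S-1, at least 3.00-fold higher, and ribosomal protein S7 (DW232903) at 122 in 57-4 against 46.5 in Pima S-1, at least 2.44-fold higher. Elongation factor EF-2 (CO122668) and a cytosolic asparaginyl-tRNA synthetase (AI725513) lay below 0 within 2-fold.

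Amino acid, sulfur and nucleotide metabolism had 5 of 7 lower and 0 higher, with a median of -1.27. S-adenosylmethionine decarboxylase (DR455468), which commits S-adenosylmethionine to polyamine synthesis, had 1221 in 57-4 and 4011 in Pima S-1, 3.29-fold lower. Phosphoribosyl anthranilate transferase 1 (DW224036), of tryptophan synthesis, had 195 in 57-4 and 746 in Pima S-1, and ribonucleotide reductase (DW512150), which makes deoxynucleotides, had 78.5 in 57-4 and 203 in Pima S-1. Ubiquitin, proteasome and protease genes had 10 of 16 lower and 0 higher. A RING-type protein with a thioredoxin-related domain had 84.3 in 57-4 and 359 in Pima S-1 on DW509967, and 53.3 in 57-4 against 115 in Pima S-1 on DT467553, and a nucellin-like aspartic protease (DT462947) had 105 in 57-4 against 304 in Pima S-1. Proteasome subunits differed less, with the 26S regulatory subunit 6A (AI055650) at 345 in 57-4 and 671.5 in Pima S-1.

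Hormone genes were split 4 higher and 4 lower among 13, with a median of -0.29. Lower in 57-4 were an Aux/IAA repressor of auxin response (DW517716), at 158 in 57-4 and 654 in Pima S-1, a second Aux/IAA protein named Gbiaa-Re (DW505592), at 34.5 in 57-4 and 149 in Pima S-1, ACC synthase 6 (DQ122174), the enzyme that sets the pace of ethylene synthesis, at 517 in 57-4 and 1249.8 in Pima S-1, and fatty acid hydroperoxide lyase (DT526911), at 125 in 57-4 against 253 in Pima S-1. Higher were an auxin-regulated protein (DW514926), with 199 in 57-4 and 31.1 in Pima S-1, the gibberellin-response repressor DELLA GAI (DT468888), with 556 in 57-4 and 159.5 in Pima S-1, a gibberellin regulated protein (DR460630), with 1008 in 57-4 and 309.6 in Pima S-1, and a cytokinin-O-glucosyltransferase (CA993006), with 388 in 57-4 against 186 in Pima S-1. The class median changed sign to 0.23 with a floor of 100, under which 2 members dropped out.

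Cell wall genes were lower in 6 of 11 and higher in 1. The 3 anther-listed alpha-expansins, which loosen walls, had log2 ratios of -1.39 on CO122608 (208 in 57-4 and 544 in Pima S-1), -1.09 on CO122609 (628 in 57-4 and 1336 in Pima S-1) and -0.92 on CO086920 (261 in 57-4 and 493 in Pima S-1). Xyloglucan endotransglycosylase (DT459646) had 56.0 in 57-4 and 141 in Pima S-1. The exception was a glycine-rich cell wall structural protein (DN760285), with 2176 in 57-4 and 642 in Pima S-1, 3.39-fold higher. Cytoskeletal probe sets were dim. In 57-4 the signals of 5 of 7, tubulin (DW507015), beta tubulin 8 (CO124872), a microtubule associated protein (DW515620), formin-like 14 (DT456692) and dynamin-related 1A (DW486050), were under 50, against 102 to 170.2 in Pima S-1, so that each was lower by at least 2.04 to at least 3.40-fold. The study's quantitative PCR of anthers had beta tubulin 8 lower in 57-4 too. Actin (DN759693), the filament of pollen tube tip growth, had 255 in 57-4 and 88.2 in Pima S-1.

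Lipid, terpenoid and phenolic enzymes held 8 lower and 2 higher of 15. Phenylalanine ammonia lyase (DN781686) and cinnamate-4-hydroxylase (CO086087), the entry steps of phenylpropanoid synthesis, had 126 in 57-4 and 425 in Pima S-1, and 190 in 57-4 against 382.5 in Pima S-1. The ovule-listed probe sets of these names had log2 ratios of -0.27 and -0.42 in anthers, within 2-fold. Alcohol acyltransferase (DT049113), of volatile ester synthesis, had 119 in 57-4 and 491 in Pima S-1. The lipid-transfer protein AKCS9 (DT049951), of a family that carries lipids to the wall, had 572 in 57-4 and 164 in Pima S-1. The probe set named farnesyl pyrophosphate synthetase 1 (DT466688) had 318 in 57-4 and 2304 in Pima S-1. The array's title likens it to an unknown Arabidopsis protein, the same one as for the hypothetical proteins DT462950, with 1322 in 57-4 and 5478 in Pima S-1, and DW478800, with 10.6 in 57-4 against 295 in Pima S-1, so its enzyme name is uncertain. All 3 were at least 4-fold lower by log2 ratios of -2.86, -2.05 and -2.56.

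Products that the study's list left without a name made up 66 of the 284, and of the 65 measured 37 were at least 2-fold lower and 3 higher. The lowest were DT467839, with 188 in 57-4 and 1457 in Pima S-1, and CA993446, with 439 in 57-4 and 3226 in Pima S-1. The array's titles liken some of the 66 to named Arabidopsis proteins, but they were not placed in a function class. DN818231, which the array likens to an EF-hand calcium-binding protein, had 822 in 57-4 and 2127.5 in Pima S-1. DT051688, likened to a phosphate-responsive 1 family protein, had 173 in 57-4 and 490 in Pima S-1. DT047424 was the highest, with 1216 in 57-4 and 344 in Pima S-1. Among the other named products, the 3 Phi-1 proteins, phosphate-responsive proteins of the EXO family in Arabidopsis, had log2 ratios of -1.42 on DT048288, -1.14 on DT047491 and -1.13 on DW225737, and PRAS-rich protein (CO085020) had 712 in 57-4 and 2131 in Pima S-1. An NBS resistance protein-like product (DW509834) was higher, with 991 in 57-4 and 328 in Pima S-1, as were the stolon tip protein TUB8 (DT051826), with 273 in 57-4 against 68.4 in Pima S-1, and a glutamic acid-rich protein (DT544528), with 1884 in 57-4 and 736 in Pima S-1.

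**Figure D3:**
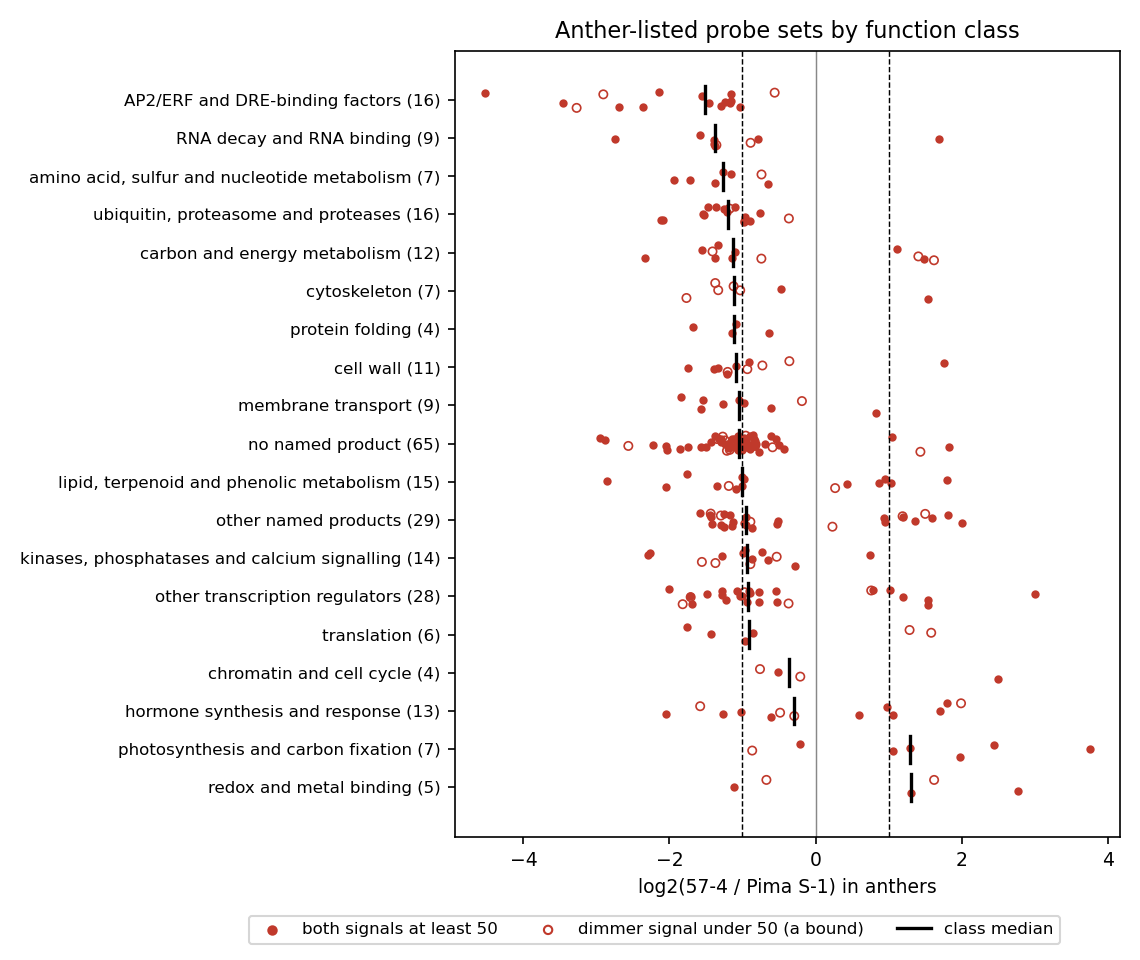
Log2 ratio of 57-4 to Pima S-1 anthers for the measured anther-listed probe sets by function class, with the number measured in parentheses, filled points where both signals were at least 50, open points where the fold is a bound and a black bar at the class median. The medians run between -1.51 for AP2/ERF and DRE-binding factors and 1.30 for redox and metal binding, and dashed lines mark a log2 ratio of -1 and 1.

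By signal level, the anther-listed probe sets at or above 2000 on the brighter array numbered 17, of which 12 were at least 2-fold lower and 3 higher, against 1.52% lower and 0.467% higher of all probe sets at that level, 1.98% together. Of the 67 between 500 and 2000, 43 were lower and 15 higher, against 1.67% and 0.791% at that level, 2.46% together, and of the 164 between 100 and 500, 88 were lower and 21 higher, against 5.11% and 3.14%, 8.25% together. Under 100 the floor leaves no room for a 2-fold ratio. The highest signals in the list belonged to a suppressor of K+ transport growth defect-like protein (CA993608), at 3159 in 57-4 and 6124 in Pima S-1, and to the hypothetical protein DT462950. The array likens CA993608 to the Arabidopsis zinc-finger factor CZF1, another name than its listed one. The bright probe sets higher in 57-4 were the glycine-rich wall protein DN760285, alcohol dehydrogenase A BE054959 and the hypothetical protein DW514056, with 3929 in 57-4 and 1901 in Pima S-1.

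Of the 684 probe sets past 2-fold in anthers, 182 were on the anther list, 40 on the ovule list only and 462 on neither. The bright ones were mostly listed. Above 500, 73 of the 101 such probe sets were on the anther list, 5 on the ovule list only and 23 on neither, while between 100 and 500 it was 109, 35 and 439 of 583. Those on neither list are not described by function here, and some may belong to the unmatched part of the ovule list. Only 1 of them reached 2000, with 1334 in 57-4 and 2941 in Pima S-1. The 439 between 100 and 500 included the probe sets farthest from equality off the lists at a signal of 200 or more, with 325 in 57-4 and 17.9 in Pima S-1, at least 6.50-fold higher, and with 56.6 in 57-4 and 205 in Pima S-1, 3.62-fold lower.

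**Figure D4:**
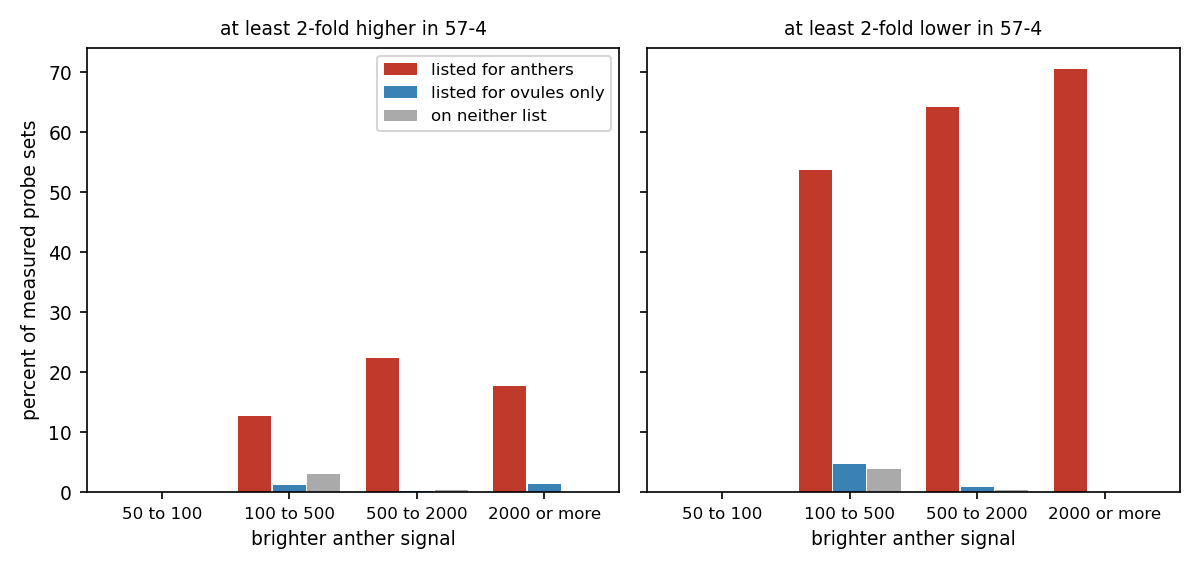
Percentage of measured probe sets (vertical axis) at least 2-fold higher (left) and at least 2-fold lower (right) in 57-4 anthers, by the brighter anther signal, for probe sets listed for anthers (red), for ovules only (blue) and on neither list (grey). Of the anther-listed probe sets at 2000 or more 70.6% were lower, against 53.7% between 100 and 500, and bars at 50 to 100 are 0 because of the floor.

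A name could stand on several listed probe sets. Of 56 names carried by an anther-listed probe set and at least 1 other listed one, 149 probe sets in all, 54 had at least 2 measured members, and of these 38 had a single sign and 16 had both. Only 18 of the 56 names stood on more than 1 anther-listed probe set, and since 81.2% of anther-listed and 69.8% of ovule-listed probe sets lay below 0, a single sign was common without regard to name. Nucleobase-ascorbate transporter 6 was 2.95-fold lower on DN826313, with 339 in 57-4 and 1001.5 in Pima S-1, and 2.26-fold lower on the ovule-listed DW494200. The names with both signs included alcohol dehydrogenase A, with log2 ratios between -2.34 and 1.48 over 4 measured probe sets, actin, elongation factor 1-alpha, DELLA GAI and ATL3F. Poly(A)-binding protein and 40S ribosomal protein S4 had both signs too, with highest log2 ratios of 0.17 and 0.32. So did fructose-bisphosphate aldolase, with a lowest of -0.71. Cotton is a tetraploid with related gene copies and the array was designed on several Gossypium species, so probe sets of 1 name need not read 1 gene. The anther-listed probe sets designed on G. raimondii sequences had a log2 ratio below 0 on 43 of 45 measured, and those on G. hirsutum on 182 of 230. Over all measured probe sets the share below 0 was 47.4% for G. raimondii designs and 50.4% for G. hirsutum designs.

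The 1155 probe sets listed for ovules only were placed on that list by their ovule signals, but ovule-listed probe sets that were also listed for anthers had been taken out, which lowers the share past 2-fold in what remains. In anthers 1098 were measured, with 9 at least 2-fold higher and 31 lower in 57-4, or 0.82% and 2.82%, against 1.41% and 1.77% of the measured probe sets on neither list, 3.18% together. Their median log2 ratio was -0.21, and 766 of the 1098 lay below 0, or 69.8%, against 47.6% of those on neither list. With the 77 also on the anther list put back, 10 of 1175 were higher and 79 lower, with a median of -0.24. Over the 1098 the median was -0.28 between 100 and 500, -0.17 between 500 and 2000, and 0.14 at 2000 or more, where probe sets on neither list had -0.07, 0.04 and 0.17. Scaled on the hybridization controls, 0 of these probe sets were higher and 230 lower. In the study's ovule list the signal headed with one line equals the deposited signal of the other line on 1414 of 1414 probe sets, within 0.06, so the direction of the ovule values beside those of anthers rests on the deposited labels.

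Among the ovule-listed classes the medians in anthers ran between -0.47 for membrane transport and 0.20 for protein folding, and all 19 lay below 0 when scaled on the hybridization controls, between -0.93 and -0.22. The ovule-listed chaperones were bright and mostly slightly higher in 57-4 anthers. Low molecular weight heat shock protein (DT527234) had 8739 in 57-4 and 6108 in Pima S-1, and 70 kDa heat shock cognate protein 1 (CA992722) had 6981 in 57-4 against 4953 in Pima S-1. Heat shock protein 60 (DT050385) had 7303 in 57-4 and 5757 in Pima S-1. The log2 ratios of these chaperones were 0.52, 0.50 and 0.34. Those ratios are about the size of the hybridization controls' own. At 2000 or more, 562 measured probe sets on neither list also lay above 0 and 203 below, with a median of 0.165. The study's quantitative PCR had a high molecular weight heat shock protein lower in 57-4 anthers. Of 38 folding probe sets 25 lay above 0 and 12 below, and none passed 2-fold, while the 4 anther-listed ones, among them protein disulfide isomerase (CO121107) at 66.3 in 57-4 and 212 in Pima S-1, lay below 0. Ubiquitin, proteasome and protease probe sets had 39 of 46 below 0 with a median of -0.34, and amino acid, sulfur and nucleotide enzymes 28 of 37 with -0.44.

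**Figure D5:**
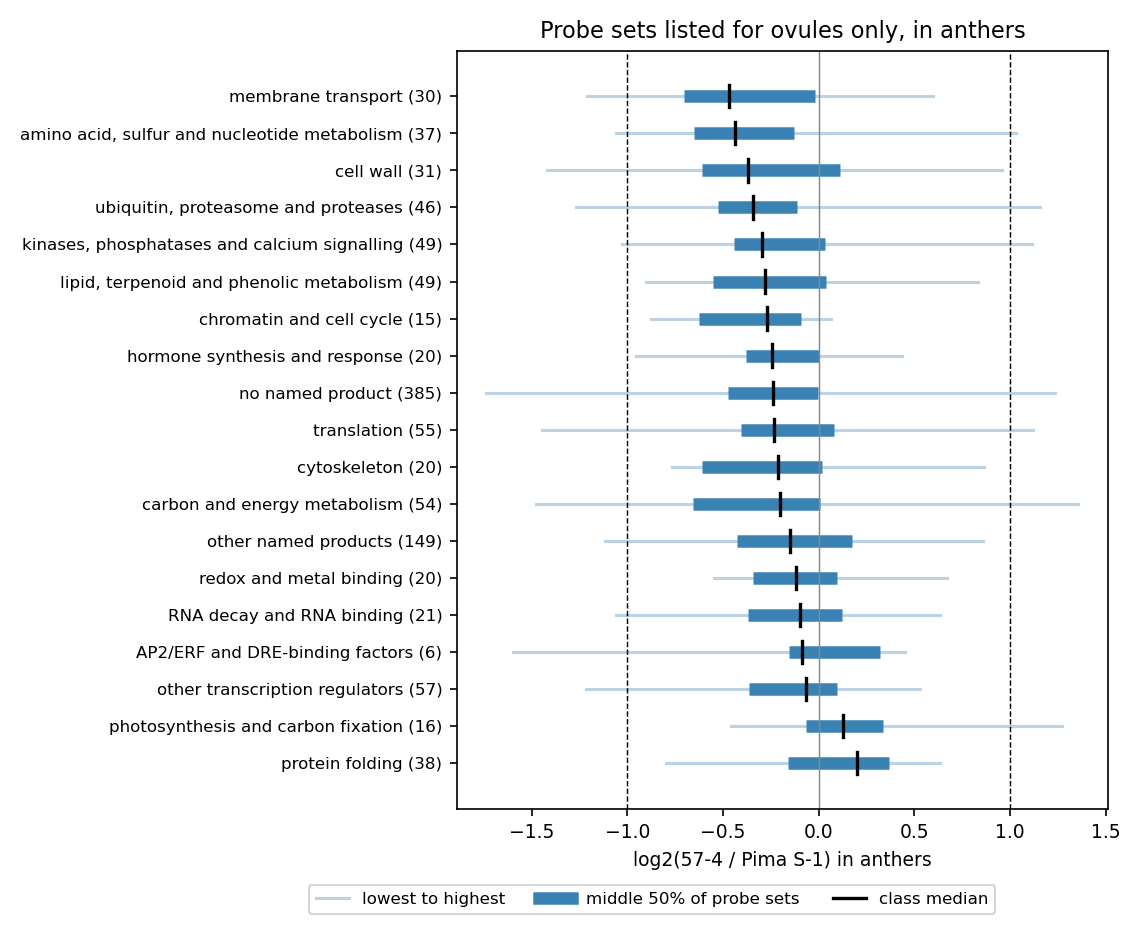
Log2 ratio of 57-4 to Pima S-1 anthers for the measured probe sets listed for ovules only, by function class, with the number measured in parentheses. Pale lines run between the lowest and highest probe set, thick lines cover the middle 50% and black bars mark the medians, which lie between -0.47 and 0.20, and the dashed lines mark a log2 ratio of -1 and 1.

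The ovule-listed probe sets farthest from equality in anthers were few. Lower in 57-4 were fasciclin-like arabinogalactan protein 14 (DT463727), a cell surface protein, with 79.7 in 57-4 and 213 in Pima S-1, fasciclin-like 11 (DT550268), with 317 in 57-4 and 686 in Pima S-1, ATP citrate lyase (CO117598), which makes cytosolic acetyl-CoA, with 105 in 57-4 against 247 in Pima S-1, and homeodomain-leucine zipper protein 56 (DT563073), with 525.5 in 57-4 and 1221 in Pima S-1. Higher were phosphoenolpyruvate carboxylase kinase (CO121618), with 212 in 57-4 and 82.6 in Pima S-1, a kinesin-like calmodulin binding protein (DW500209), with 271 in 57-4 and 125 in Pima S-1, and DAHP synthase (CO090411), the entry enzyme of the shikimate pathway, with 445 in 57-4 against 217.5 in Pima S-1. A product with no name (DT565137) was the brightest of them, with 2615 in 57-4 and 1270.0 in Pima S-1, and its signal in ovules, 1869 in 57-4, was lower than the 5851 of Pima S-1. Words for ovule and fibre matched 22 ovule-listed probe sets, of which 3 were at least 2-fold lower and 0 higher in 57-4 anthers, with a median of -0.46, and 4 anther-listed ones, with 3 lower, 0 higher and a median of -1.13. Of all measured probe sets on these lists, 2.82% of the ovule-listed and 51.62% of the anther-listed ones were at least 2-fold lower. The summed signal of all 26 was 19697 in 57-4 anthers against 22521 in those of Pima S-1, and 24985 in 57-4 ovules against 38155 in those of Pima S-1.

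Against their level in ovules, 37 of the 277 measured anther-listed probe sets were at least 2-fold brighter in anthers and 48 at least 2-fold brighter in ovules, on the mean of both lines. Over all probe sets measured in anthers it was 1293 and 941 of 15900. Among the 253 anther-listed ones measured in both tissues 30 were past 2-fold downward in 57-4 in each tissue and 4 upward in each, while 7 had the lower signal of 57-4 in anthers with a higher one in ovules and 0 the reverse, against 69, 23, 23 and 2 of 13428 over all probe sets. Of the 77 anther-listed probe sets whose accession is also on the ovule list, 48 were at least 2-fold lower in anthers and 1 higher, and of the 207 others 95 were lower and 38 higher. Both lists come from the same 4 arrays, and the ovule table used here is only part of its list, so an accession missing from it may still belong there. The 3' to 5' ratios were higher in 57-4 in both tissues, and their part in these counts was not tested.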

How the data were processed

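Anthers and ovules of 57-4 and Pima S-1 were each hybridized to 1 Affymetrix Cotton Genome GeneChip, with RNA pooled from 3 biological replicates. The deposited values are intensities, MAS5 signals made by the authors in Affymetrix software (version not given in the sources used here) and scaled so that the mean signal without the lowest and highest 2% is the same on every array, 250.06 on both anther arrays. Python 3.11.15 with pandas 2.3.3 and numpy 2.4.6 was used. The 103 control probe sets were left out of counts. Signals under 50 were set to 50, log2(57-4/Pima S-1) was taken, and a difference was counted at a log2 ratio of 1 or -1. With 1 array per group no test, SD or standard error exists, and having 1 array per group limits precision.

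Members and names came from the study's additional files, of which only identifiers and descriptions were used. The anther list gives 284 probe sets and 283 accessions, and its printed signals differ from the deposited ones on all 284. Of 1600 accessions on the ovule sheet 1230 could be matched to probe sets, and the other 370 were not used, because the ovule table used here is only part of the list. Function classes were assigned by hand for the anther list and by words in the description for the ovule list. Members, classes and word lists were chosen with earlier results of these data known. Probe sets picked for naming are, in each anther-listed class, all members of classes of 6 or fewer and otherwise the 4 with the largest log2 ratio and a brighter signal of at least 200, those at 2000 or more, those sharing a description, those the study's text names by accession, and the 10 ovule-listed ones farthest in each direction with a brighter signal of at least 200. Not every probe set picked by this rule is given in the text. Other probe sets named as examples were chosen after their values were seen. The counting was tried on simulated data with changes past the threshold planted at signals of at least 200. Changes in dimmer signals or close to the threshold were not tried. No sequence is shown, because no table used here ties these probe sets to one.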

Additional observations from a re-analysis of the deposited data

Results flagged for a closer look

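Probe sets of the lists that were at least 2-fold apart in opposite directions in the 2 tissues are given by their log2 ratio of 57-4 to Pima S-1. The difference between tissues was not tested, since each value is 1 array against 1 array, and the ovule sign rests on the deposited labels, which the study's ovule list heads the other way round. Lower in anthers and higher in ovules were chloroplast 50S ribosomal protein L32 (DT461698) with -1.76 in anthers and 1.78 in ovules, a nucellin-like protein (DT462947) with -1.54 and 1.41, a glycine-rich protein (DT463212) with -1.21 and 1.51, AP2/EREBP factor ERF-1 (AY779339) with -1.24 and 1.06, inositol oxygenase 4 (CO084627) with -1.75 and 1.40, and the hypothetical proteins DR463298 with -1.57 and 1.06 and DW502097 with -1.07 and 1.33. Higher in anthers and lower in ovules were products with no name, DT565137 with 1.04 in anthers and -1.65 in ovules and CO089733 with 1.23 and -1.09.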

How the results depend on the processing

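The 253 higher and 431 lower of all probe sets became 3299 higher and 2774 lower with no floor, 70 and 190 with a floor of 100 or with a brighter signal of at least 200, 40 and 1570 when scaled on the hybridization controls, 147 and 183 on single-transcript probe sets, and 36 and 76 at a log2 threshold of 1.5. The 39 higher and 143 lower anther-listed probe sets became 25 and 93 with a floor of 100 or a brighter signal of at least 200, 19 and 53 on single-transcript probe sets, 23 and 49 at the threshold of 1.5, and 24 and 193 under control scaling. The 9 higher and 31 lower ovule-listed ones became 31 and 64 with no floor, 5 and 15 with a floor of 100 or a brighter signal of at least 200, 0 and 230 under control scaling, 4 and 8 on single-transcript probe sets, and 0 and 3 at the threshold of 1.5. Under control scaling the median log2 ratio of the anther-listed classes was -1.964 for AP2/ERF factors, -1.805 for RNA decay, -1.352 for kinases and calcium, -1.512 for transport, -1.447 for no named product, -1.36 for other named products, 0.828 for photosynthesis, 0.832 for redox and -1.38 for translation. On single-transcript probe sets it was -2.529 for AP2/ERF factors, -0.002 for carbon, 0.871 for chromatin, -0.27 for lipids, -0.613 for transport, -0.644 for folding, 0.823 for redox and 1.287 for translation. With a floor of 100 it was -0.852 for amino acids, -0.654 for carbon, 1.058 for chromatin, -0.332 for the cytoskeleton, 0.225 for hormones, -0.345 for lipids and 0.684 for redox. With a brighter signal of at least 200 it was 2.502 for chromatin, 0.531 for the cytoskeleton, which turned its sign, 0.601 for hormones, 2.441 for photosynthesis, 0.823 for redox and -1.434 for translation, and with no floor it was -0.818 for chromatin. Small classes lose members under these settings, and otherwise the cause was not tested. Of the 204 probe sets picked by rule or as examples, 142 were past 2-fold, of which 0 turned their sign under the alternatives run, 106 remained past 2-fold with a floor of 100 and 124 under control scaling. That 0 was largely fixed by the settings and says little. A floor or a subset cannot turn the sign of a single probe set, and control scaling shifts a log2 ratio by at most 0.469. Centring the arrays on their medians moved the median of all measured log2 ratios by 0.023. No paired analysis was possible because each line has 1 anther array and no test was run.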
